A study of Rattus norvegicus with 2 samples.

Results

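Cytokines, chemokines and their receptors were read from the duodenal mucosa of a male Wistar rat that spent 2 weeks in an immobilization cage and of a control rat of the same sex and strain kept in a metabolic cage over those 2 weeks. Both rats were aged 15 weeks, no drug or genetic change is named for either, and RNA of each was hybridised to 1 Affymetrix rat U34A array, an array of short oligonucleotide probes grouped into probe sets. The labels describe 1 rat for each array and name the material as epithelial cells, whereas the design text names mucosa. Members were all probe sets with a single array symbol that begins with Ccl, Cxcl, Ccr, Cxcr or Il and a digit, or with Tnf, Ifn, Tgfb or Csf and a further letter or digit, without the Tnfaip genes. This rule found 98 probe sets of 69 genes, among 8799 probe sets and 4736 genes with a single symbol on the array. It does not take in Tnf itself, whose symbol has no further letter, and it left out 2 mouse control probe sets and 1 interferon probe set that carries several symbols.

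Cytokines are small secreted proteins by which cells of the immune system, the epithelium and the stroma signal to each other over short distances. Chemokines are the cytokines that attract cells along a gradient, through receptors of the seven-helix kind, while most interleukins and interferons act through receptors that recruit JAK kinases and STAT transcription factors. Members of the TNF and interleukin-1 families act mainly through NF-kappaB, and the TGF-beta family through SMAD proteins. In the small intestine, enterocytes are a source of several of these signals, among them Il18, Ccl20 and Il15, which maintain or recruit lymphocytes of the mucosa.

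With 1 array for each rat there was no replicate, no test could be made, and no difference here was set against the spread between animals. Precision is limited by this number of arrays. Signals are the authors' values on a linear scale, with those of the immobilized rat scaled by 1.017. This set the median log2 ratio to 0.00 over the probe sets above a floor, defined next, on both arrays. A probe set was counted as above the floor where its signal exceeded 39.97, the 50th percentile of all signals, and a ratio was taken only where both arrays exceeded it. Where 1 array exceeded it, the signal over the floor is given as a bound. Log2 ratios are those of the immobilized over the control rat. The log2 ratios of several probe sets for a single gene had an SD of 0.31 around their mean (696 genes), called the technical SD below, which is an error within this pair of arrays.

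The material held the marker genes of absorptive enterocytes, as 14 of the 14 represented on the array exceeded the floor in both rats. Their summed signal was 60088 in the immobilized rat and 70444 in the control rat, and 13 of the 14 were lower in the immobilized rat (median log2 ratio -0.28). Exocrine pancreas markers had a summed signal of 13778 in the immobilized rat and 7427 in the control rat, with 15 of the 16 above the floor higher (median log2 ratio 0.76). Of the 16, 5 were 2-fold higher, against 2.02% of all genes, namely Ctrb1, Sycn, Clps, Gp2 and Amy2a3. How exocrine pancreas RNA came to be in this material was not tested. In whole mucosa, fewer cells of a type and less RNA in each cell cannot be told apart, and the part of such marker differences in the values that follow was not tested.

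The 250 bases before the annotated start of 3 member genes are shown first, to give sequence beside the values described further on. Ccl5 and Ccl2, which differed more than Ccl20, are named only. Il15 was higher at each of its probe sets in the immobilized rat, Ifngr1 had the lowest log2 ratio of the members, and Ccl20 is a chemokine of the intestinal epithelium. The sequences are from RefSeq on the build GRCr8, written 5′ to 3′ on the strand of the gene, and capitals mark a match to a searched motif. Il15 holds no match to the full interferon-stimulated response element and 1 to its shortened form GAAANNGAA, on the opposite strand, whose first capital lies 26 bases before the start. Ccl20 holds a match to the NF-kappaB consensus that begins 89 bases before the start. Ifngr1 holds no match to the motifs searched in this window.
Il15 (chr19:42544456-42544705, plus strand): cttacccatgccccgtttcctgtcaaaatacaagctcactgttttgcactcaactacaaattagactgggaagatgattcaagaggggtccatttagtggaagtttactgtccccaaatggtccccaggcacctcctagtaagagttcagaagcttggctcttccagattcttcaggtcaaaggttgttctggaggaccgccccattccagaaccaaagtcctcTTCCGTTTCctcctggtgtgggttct
Ccl20 (chr9:91836909-91837158, plus strand): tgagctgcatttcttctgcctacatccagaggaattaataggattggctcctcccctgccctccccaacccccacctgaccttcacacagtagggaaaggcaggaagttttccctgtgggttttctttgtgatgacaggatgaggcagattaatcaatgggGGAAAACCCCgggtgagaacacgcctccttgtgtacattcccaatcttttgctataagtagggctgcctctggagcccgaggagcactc
Ifngr1 (chr1:16152660-16152909, plus strand): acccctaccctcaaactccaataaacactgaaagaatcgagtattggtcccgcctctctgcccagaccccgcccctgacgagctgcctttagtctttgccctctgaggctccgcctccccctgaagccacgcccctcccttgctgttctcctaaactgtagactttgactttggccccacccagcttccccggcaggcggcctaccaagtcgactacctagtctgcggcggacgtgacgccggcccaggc

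Promoters of 51 of the 69 genes were matched, and 5 motifs were searched on both strands of the 250 bases. The NF-kappaB consensus was found in 12 of the 51 (23.5%) and in 6.33% of all 33469 promoters of the table. Of these 12 genes, 4 exceeded the floor in both rats, namely Ccl20, Cxcl6, Il1rap and Tgfbrap1, with log2 ratios of -0.52, -0.18, 0.18 and 0.41. The other 8, such as Cxcl2, Cxcl10, Il6 and Ifnb1, were not above it. The TATA-box letters TATAAA were found in 13 (25.5%), against 12.9% of all promoters, and the interferon-stimulated response element, GAAANNGAA with a further A, in 5 (9.80%), against 3.41%. Of these 5 genes, Il1rap was above the floor on both arrays. The shortened form GAAANNGAA, which takes in every match to the full one, was searched after the full form had been, and was found in 8 (15.7%), against 8.12%. It adds Il15, Ccr2 and Csf1r, so the match in Il15 rests on this choice. The letters TTCNNNGAA, the core of STAT-binding sites, were found in 0 of the 51 and in 7.67% of all promoters. A match is a run of letters and not a site shown to be bound.

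Most of the cytokine system gave no signal above the array median. Of the 98 probe sets, 28 (28.6%) were above the floor on both arrays, against 47% of all 8740 probe sets that are not array controls. A further 6 exceeded it in the immobilized rat only, 6 in the control rat only and 58 on neither array. By gene, 21 of 69 had a probe set above the floor on both arrays, 10 on 1 array at most and 38 on neither. Taken by brightest probe set, 21 of the 69 were likewise above it on both arrays, against 2524 of the 4736 genes on the array. Shares over all probe sets above the floor on 1 array or on neither were not counted. Probe sets above the floor on both arrays were most frequent in the TNF superfamily (6 of 12) and the chemokines (6 of 14), apart from the small group of colony-stimulating factors (2 of 4). They were least frequent in the interleukin receptors (3 of 17) and interleukins (5 of 28). Ligands and receptors were much alike in this, with 16 of 54 and 11 of 42 probe sets above the floor. A signal under the floor is not a sign that the gene was silent, since the floor is a percentile chosen here and not a detection limit of the arrays.

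**Figure D1:**
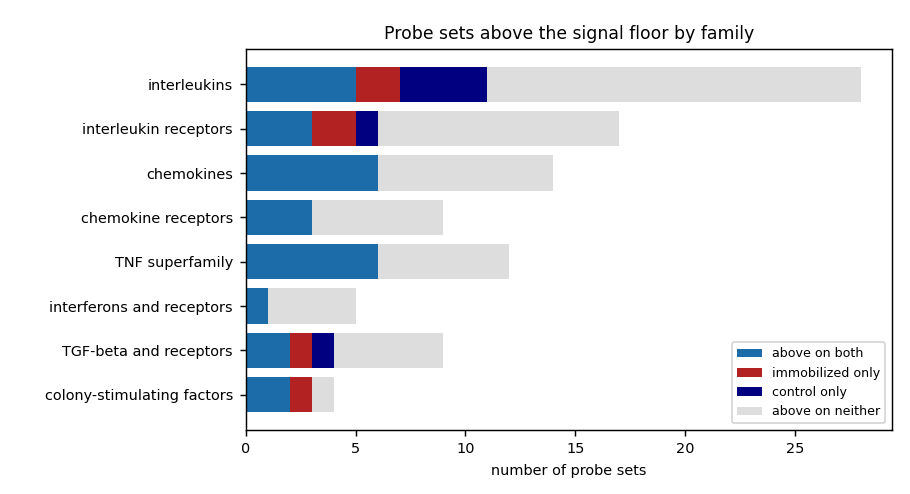
Number of member probe sets (horizontal axis) in each family (rows) that were above the signal floor on both arrays, in the immobilized rat only, in the control rat only or on neither array. The grey part, above on neither, makes up 58 of the 98 probe sets and is longest in the interleukins (17 of 28).

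The genes that were not above the floor include many cytokines of activated lymphocytes and myeloid cells. Among interleukins these were the T cell growth factor Il2, the type 2 cytokines Il4, Il5 and Il9, the anti-inflammatory Il10, the acute-phase inducer Il6, and Il3, Il7 and the receptor antagonist Il1rn. Among chemokines they were Ccl3, Ccl4, Ccl11, Cxcl2, Cxcl3, Cxcl10 and Cxcl13, and among receptors Ccr1, Ccr2, Ccr3, Cxcr2 and Cxcr5. The interleukin receptor genes Il1r1, Il2ra, Il6st, Il7r and Il9r, the TNF superfamily genes Tnfrsf4, Tnfrsf8, Tnfrsf11b and Tnfsf4, and Tgfb3 and Tgfbr1 were likewise below it. Interferon gamma (Ifng), interferon beta (Ifnb1), the receptor chain Ifnar1, the TNF receptor Tnfrsf1b and the M-CSF receptor Csf1r were also below it on both arrays. By mean signal the members of this group nearest to the floor were Ifnar1, with 33.9 in the immobilized rat and 27.2 in the control rat, Il1r2, with 32.9 and 22.5 in the same order, and Ccr1, with 18.9 and 35.7. Tnf, which is no member, had 6.51 in the immobilized rat and 8.50 in the control rat.

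Among the 28 probe sets above the floor on both arrays, 13 were higher and 15 lower in the immobilized rat. Of all probe sets above the floor on both arrays, 50.1% were higher, so the split of the members was near that share. Their median log2 ratio was -0.03, against 0.00 over all 4105 probe sets above the floor, and their range was -0.78 to 1.63. A total of 3 probe sets were at least 2-fold higher, namely those of Ccl5, Il15 and Tnfrsf21, and 0 at least 2-fold lower, where 2.34% of all probe sets were 2-fold higher and 0.853% 2-fold lower. Each gene taken by its brightest probe set, 2 of 21 genes were 2-fold higher (Ccl5 and Il15), against 2.02% of all 2524 genes, and 0 were 2-fold lower, against 0.674%. In all, 21 of the 28 probe sets differed by less than 1.5-fold, 4 were at least 1.5-fold higher, against 8.92% of all probe sets, and 3 at least 1.5-fold lower, against 5.46%. Beyond 2 technical SDs lay 6 probe sets, against 12.5% of all, and these were Ccl5, Il15, Tnfrsf21, Il18, Ccl2 and Ifngr1.

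**Figure D2:**
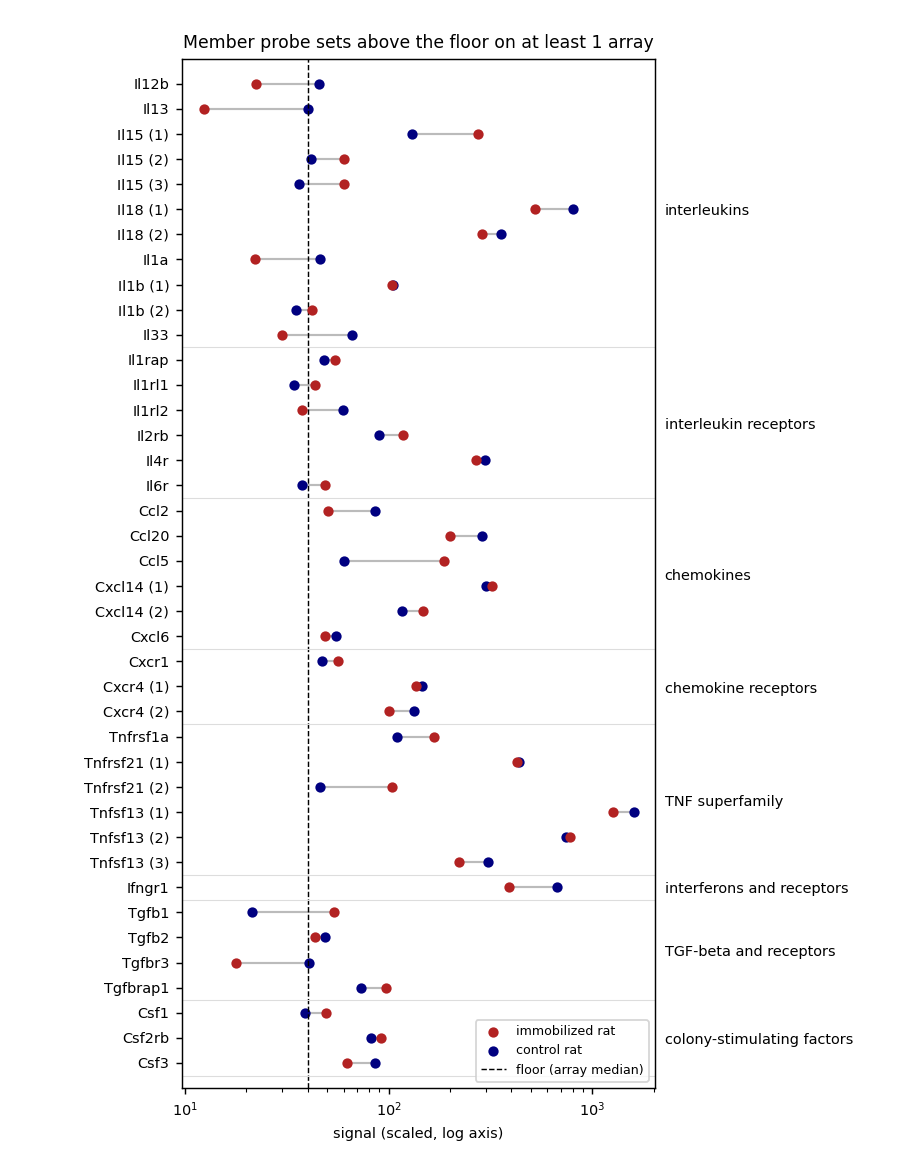
Scaled signal (horizontal log axis) of each member probe set above the floor on at least 1 array, in the immobilized rat (red) and the control rat (blue), by family. The dashed line is the floor of 39.97, and numbers in brackets order the probe sets of a gene by mean signal. The widest gaps to the right of the floor are those of Ccl5 (186 and 60.1) and of the second Tnfrsf21 probe set (104 and 46.0).

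Ccl5 was the member that differed most. It encodes RANTES, a chemokine made by T cells, natural killer cells and others that attracts T cells, monocytes and eosinophils. Its single probe set had a signal of 186 in the immobilized rat and 60.1 in the control rat, 3.10-fold higher and the only member at 3-fold, where 0.633% of all probe sets were 3-fold higher. The Ccl5 receptors Ccr1 and Ccr3 were not above the floor in either rat. Of 14 marker genes of T and natural killer cells on the array, 4 exceeded the floor in both rats, and 3 of those 4 were higher. The T cell receptor chain Cd3g had 63.6 in the immobilized rat and 41.3 in the control rat, the kinase Lck 200 and 180, and the granule protease Gzmb 132 and 125 (a log2 ratio of 0.08, and -0.45 at its other probe set), whereas Cd4 had 46.0 and 59.4. The summed signal of the 14 was 608 in the immobilized rat and 559 in the control rat, and the defining markers Cd3d, Cd247, Cd8a, Cd8b and Cd2 were not above the floor in either. Their part in the Ccl5 difference was not tested.

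The other chemokines above the floor were lower or much the same in the immobilized rat. Ccl2, which attracts monocytes, had 50.2 in the immobilized rat and 85.7 in the control rat, 1.71-fold lower, and its other probe set was not above the floor. Ccl20, which draws cells carrying Ccr6 to the epithelium over lymphoid follicles, had 200 in the immobilized rat and 286 in the control rat, 1.43-fold lower at a log2 ratio of -0.52. For Cxcl14, a chemokine of epithelia, the signals were 322 in the immobilized rat and 301 in the control rat, and 147 and 116 at its second probe set, so that both log2 ratios (0.10 and 0.34) were close to the technical SD or within it. Cxcl6, a neutrophil attractant, had 48.5 in the immobilized rat and 55.1 in the control rat, near the floor in both. Thus 3 of the 6 chemokine probe sets were higher and 3 lower.

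Chemokine receptors differed little. Cxcr4, the receptor of Cxcl12, had 135 in the immobilized rat and 146 in the control rat at its brightest probe set and 99.9 and 133 at another, with log2 ratios of -0.11 and -0.41, and its last probe set was not above the floor. Cxcr1, a receptor for neutrophil-attracting chemokines, had 56.0 in the immobilized rat and 47.0 in the control rat, a log2 ratio of 0.25 within the technical SD.

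Among the interleukins, Il15 and Il18 differed in opposite directions. Il15 supports natural killer cells and the lymphocytes that lie between enterocytes. Its brightest probe set had 275 in the immobilized rat and 130 in the control rat, 2.11-fold higher, and a probe set named after the same sequence had 60.0 and 41.5, with a log2 ratio of 0.53. The remaining Il15 probe set had 60.5 in the immobilized rat and 36.1 in the control rat, under the floor, and was at least 1.51-fold higher. Il15 was thus higher at 3 of 3 probe sets, by differing amounts. Il2rb, a receptor chain that binds Il15 and Il2, had 118 in the immobilized rat and 89.3 in the control rat, a log2 ratio of 0.40. Il2ra, a receptor chain that serves Il2, was not above the floor.

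Il18, a member of the interleukin-1 family that enterocytes store as a precursor, was lower in the immobilized rat at both of its probe sets. The signals were 523 in the immobilized rat and 806 in the control rat at the first, and 288 and 355 at the second. The log2 ratios were -0.62 and -0.30, of which the second lies within the technical SD. Il1b, the inflammatory cytokine of macrophages, had 104 in the immobilized rat and 105 in the control rat, a log2 ratio of -0.02. Enterocyte markers, a possible source of Il18 and Ccl20 signal, were themselves lower at a median log2 ratio of -0.28, and their part was not tested.

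Further interleukins exceeded the floor in the control rat only. Il33, an alarm signal held in nuclei of stromal and epithelial cells, had 29.8 in the immobilized rat and 65.7 in the control rat and was at least 1.64-fold lower. Il1a, with 22.1 in the immobilized rat and 46.1 in the control rat, and Il12b, with 22.4 and 45.4, were at least 1.15-fold and 1.14-fold lower. Il13 had 12.3 in the immobilized rat and 40.1 in the control rat, just over the floor. All of these signals were at most 65.7, and the other probe sets of Il1a and Il12b were not above the floor on either array.

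Of the interleukin receptors, 3 exceeded the floor in both rats, each at less than 1.5-fold. Besides Il2rb these were Il4r, the receptor of Il4 and Il13, with 269.5 in the immobilized rat and 296 in the control rat, and Il1rap, the shared partner chain of the interleukin-1 family receptors, with 54.6 and 48.3. Their log2 ratios were -0.14 and 0.18. Il1rl2, a receptor for interleukin-36 cytokines, had 37.4 in the immobilized rat and 59.8 in the control rat and was at least 1.496-fold lower. Il1rl1, the Il33 receptor, had 43.3 in the immobilized rat and 34.1 in the control rat, and Il6r, the Il6 receptor, had 48.6 and 37.6, so that both crossed the floor in the immobilized rat only.

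**Figure D3:**
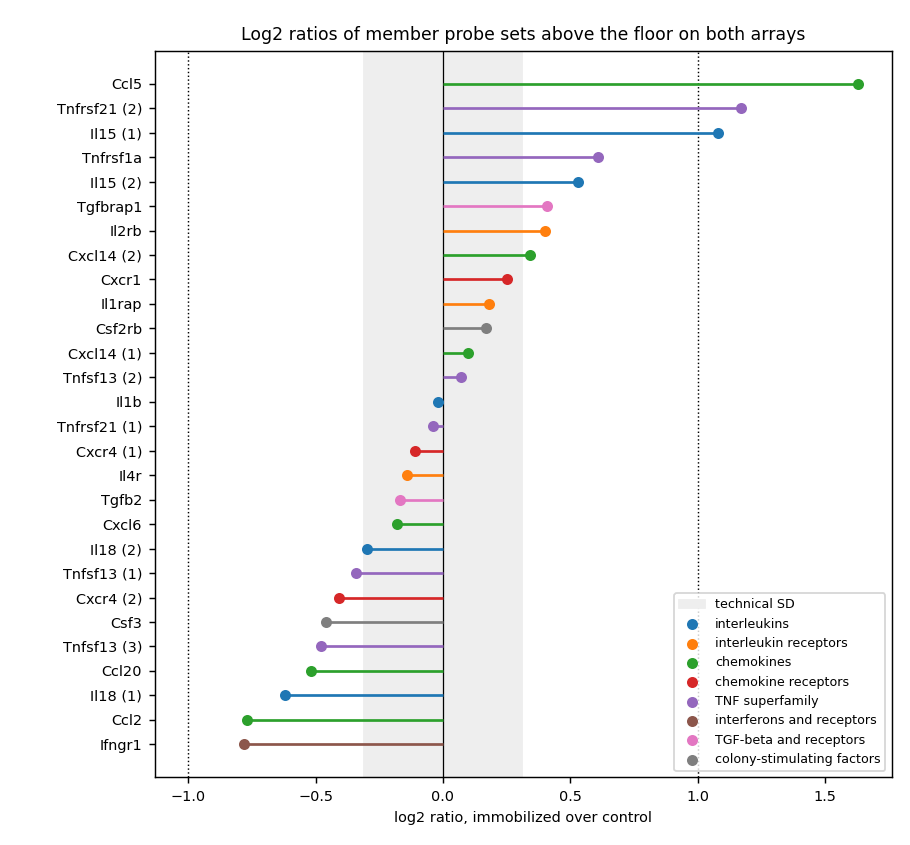
Log2 ratio of the immobilized over the control rat (horizontal axis) for the 28 member probe sets above the floor on both arrays, coloured by family and ordered by ratio. The grey band is 1 technical SD (0.31) on either side of 0 and dotted lines mark 2-fold. Ccl5, 1 probe set of Tnfrsf21 and 1 of Il15 lie beyond 2-fold, and Ccl2 and Ifngr1 have the lowest ratios.

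In the TNF superfamily, Tnfrsf1a was higher while Tnfsf13 was slightly lower or level. Tnfrsf1a, the broadly expressed receptor of TNF, had 168 in the immobilized rat and 110 in the control rat, 1.53-fold higher. Tnfsf13 encodes APRIL, a ligand that promotes plasma cell survival and class switching to IgA. Its probe sets had 1260 in the immobilized rat and 1596 in the control rat, then 781 and 743, then 220 and 308, with log2 ratios of -0.34, 0.07 and -0.48. Tnfrsf21, a death-domain receptor, gave conflicting values. Its brightest probe set had 425 in the immobilized rat and 438.5 in the control rat, a log2 ratio of -0.04, whereas the dimmer, named after the same sequence, had 104 and 46.0, a log2 ratio of 1.17. No direction is therefore given for Tnfrsf21.

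Ifngr1, the ligand-binding chain of the interferon gamma receptor, was the lowest member by ratio. Its probe set had 392 in the immobilized rat and 671 in the control rat, 1.71-fold lower. It was at least 1.5-fold lower together with 2 other probe sets, those of Ccl2 and Il18. Interferon gamma itself was not above the floor at either of its probe sets.

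The TGF-beta group and the colony-stimulating factors gave small or bounded differences. Tgfb1, a cytokine that restrains lymphocytes and promotes matrix formation, had 54.0 in the immobilized rat and 21.2 in the control rat, at least 1.35-fold higher. Tgfb2 had 43.3 in the immobilized rat and 48.6 in the control rat, and Tgfbrap1, an intracellular protein that associates with TGF-beta receptors, had 97.0 and 73.1, with a log2 ratio of 0.41. The co-receptor Tgfbr3 had 17.7 in the immobilized rat and 40.4 in the control rat, just over the floor. Csf3, the granulocyte colony-stimulating factor, had 62.3 in the immobilized rat and 85.5 in the control rat, a log2 ratio of -0.46. Csf2rb, the signalling chain shared by receptors of Csf2, Il3 and Il5, had 92.1 and 81.7, and Csf1, the macrophage growth factor, had 49.2 and 38.7, above the floor in the immobilized rat only.

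Set among all probe sets above the floor, the members lay inside the range of ratios on the array. Of the 28 probe sets, 10 had a geometric mean signal under 100 and 18 had 100 or more, and over all probe sets the SD of log2 ratios was 0.42 and 0.45 in these classes. In the 6 genes that had several probe sets over the floor in both rats, both or all probe sets had the same sign in 4 (Cxcl14, Cxcr4, Il15 and Il18), and the signs differed in Tnfrsf21 and Tnfsf13.

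**Figure D4:**
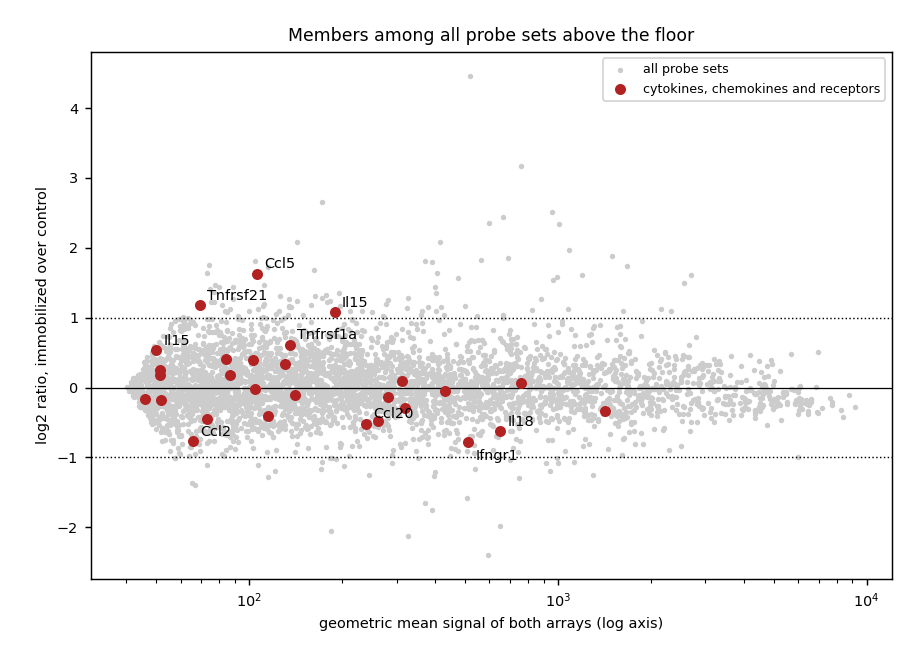
Log2 ratio of the immobilized over the control rat (vertical axis) against the geometric mean signal of both arrays (horizontal log axis) for the 4105 probe sets above the floor that are not array controls (grey) and the 28 members (red). Members with a log2 ratio beyond 0.5 in size are labelled where they lie. Dotted lines mark 2-fold, which 96 probe sets passed upward and 35 downward.

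Genes that carry or answer cytokine signals were read from lists beside the members, each gene by its brightest probe set. In the list of JAK, STAT and SOCS signalling, 18 genes were on the array and 9 exceeded the floor in both rats, 5 higher and 4 lower, 0 at 2-fold, with a median log2 ratio of 0.01. Farthest from 0 were the kinase Jak2, with 58.9 in the immobilized rat and 91.7 in the control rat, the transcription factors Stat2 (log2 ratio 0.43) and Stat3 (0.37), and the feedback inhibitor Cish (-0.33). Of the 36 listed genes of NF-kappaB, TNF and Toll-like receptor signalling only 6 had a probe set, and the 4 above the floor were lower, 0 of them at 2-fold. They were the inhibitor Nfkbia, with 215 in the immobilized rat and 318.5 in the control rat, the endotoxin co-receptor Cd14, with 53.1 and 75.9, the adaptor Traf2, with 52.3 and 69.2, and Nfkb1, with 258 and 267.5.

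For TGF-beta superfamily signalling, 14 of 25 genes were above the floor, 6 higher and 8 lower, with a median of -0.05 and 0 at 2-fold. The inhibitor Smad7 had 89.8 in the immobilized rat and 63.4 in the control rat, the activin receptor Acvr2a 116 and 155, Inhba 48.4 and 57.1, and Acvrl1 46.2 and 53.2. Interferon-responsive genes were level as a group, with 6 higher and 8 lower of 14 and a median of -0.02, 0 at 2-fold. The proteasome subunit Psmb9 had 1350 in the immobilized rat and 985 in the control rat (a log2 ratio of 0.45, and -0.04 at its other probe set), the peptide transporter Tap1 380.0 and 280.4, and Oas1a 147 and 119.7. Irf1, a transcription factor induced by interferon gamma, had 1559 in the immobilized rat and 1870.4 in the control rat, a log2 ratio of -0.26.

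Cytokine ligands and receptors with other symbols had 9 of 27 genes above the floor, 3 higher and 6 lower. Their median was -0.16, and 0 were at 2-fold by brightest probe set. Prlr had a log2 ratio of -0.09 there but ranged from -0.18 to 1.27 over 4 probe sets, the highest beyond 2-fold. Cx3cl1 had -0.21 and ranged from -0.72 to 0.37 over 3. Crlf2, a receptor chain for thymic stromal lymphopoietin, had 149 in the immobilized rat and 84.9 in the control rat. Ngfr, a receptor of neurotrophins, had 147 and 265 (a log2 ratio of -0.85, and 0.01 at another probe set), while Hmgb1 had a log2 ratio of 0.45 and the growth hormone receptor Ghr one of -0.40. Of cytokine-responsive inflammatory genes, 28 were on the array. In both rats 12 exceeded the floor, 6 higher and 6 lower with a median of -0.01, and another 12 exceeded it on neither array. This list, like the others, was chosen with earlier results of these data known, so its counts are not independent of them. By brightest probe set 3 of the 12 above the floor in both rats were at 2-fold higher, against 2.02% of all genes. At 2-fold lower were 0, against 0.674%. These 3 were the secretory phospholipase Pla2g2a, with 209.7 in the immobilized rat and 63.4 in the control rat, the inducible nitric oxide synthase Nos2, with 128 and 46.4 (a log2 ratio of 1.47, and -0.41 at another probe set), and the fibrinogen chain Fga, with 131 and 48.6. The fibrinogen chains Fgb and Fgg were above the floor on neither array. Fgb had 4.58 in the immobilized rat and 12.6 in the control rat, and Fgg had 10.3 and 9.9. The transcription factor Cebpb had a log2 ratio of 0.70, and Crp had one of -0.64 and one of -0.54 at its other probe set. Of 4 genes above the floor on 1 array, the adhesion molecule Icam1 and Cd44 exceeded it in the immobilized rat only. They were at least 1.74-fold and 1.206-fold higher. Hp and Selp exceeded it in the control rat only, at least 1.309-fold and 1.304-fold lower.

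Markers of myeloid and stromal cells are given for the same comparison. Of macrophage and dendritic cell markers, 9 of 13 were above the floor, 6 higher and 3 lower with a median of 0.12, and their summed signal was 15988 in the immobilized rat and 14659 in the control rat. The lysozyme gene Lyz2 had 953 in the immobilized rat and 465 in the control rat, the 1 marker of this list at 2-fold higher. Which cells of the mucosa gave the Lyz2 signal was not tested. The markers Csf1r, Itgam, Fcgr2b and Aif1 were not above the floor on either array. Smooth muscle and fibroblast markers had 10 of 13 above the floor, 6 higher and 4 lower with a median of 0.39, and summed to 1422.5 in the immobilized rat and 1098 in the control rat. The 1 marker of them at 2-fold higher was the smooth muscle actin Acta2, with 289 in the immobilized rat and 90.3 in the control rat (a log2 ratio of 1.68, and -0.13 at its other probe set). Granulocyte and mast cell markers had 4 of 14 above the floor, 2 higher and 2 lower, with the mast cell protease Mcpt1 (169 in the immobilized rat and 74.0 in the control rat) the 1 at 2-fold higher, and endothelial markers 0 of 4. By its brightest probe set no marker of these lists was at 2-fold lower, against the 2.02% and 0.674% of all genes that were 2-fold higher and lower. Only 2 listed B cell and plasma cell genes had a probe set. The part of these cells in the cytokine values was not tested.

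**Figure D5:**
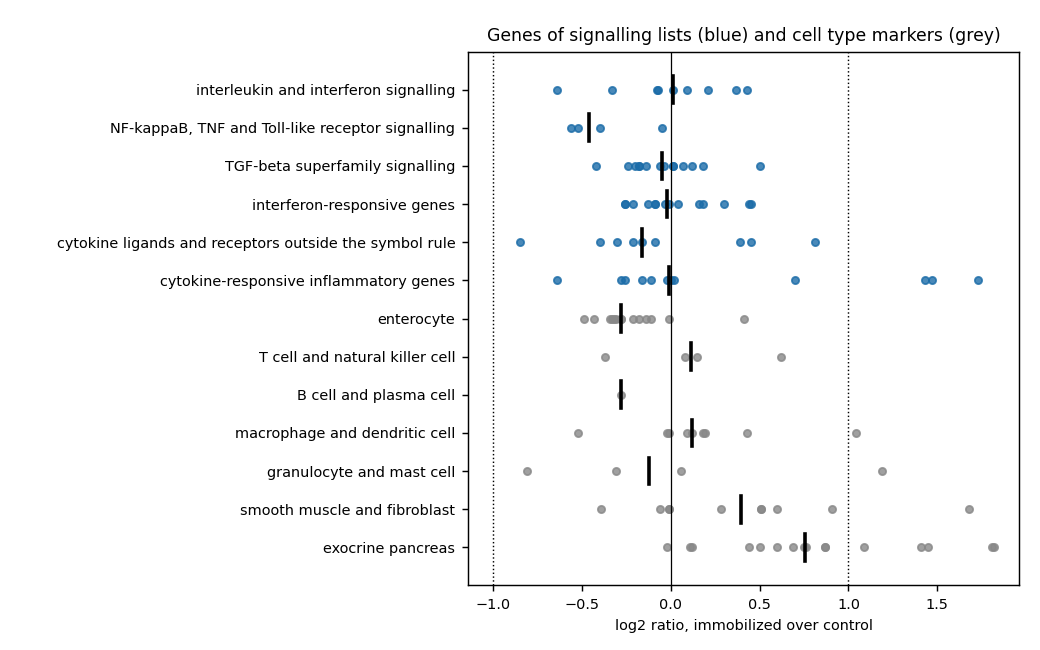
Log2 ratio of the immobilized over the control rat (horizontal axis) of each gene above the floor on both arrays, 1 point for each gene by its brightest probe set, in lists of cytokine signalling and response (blue) and cell type markers (grey). Black bars are list medians and dotted lines mark 2-fold. Exocrine pancreas markers have the highest median (0.76), and the 4 genes of NF-kappaB signalling lie below 0.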

How the data were processed

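The authors deposited 1 signal intensity for each probe set on a linear scale. Per the labels' design text, the manufacturer's software in version 4.0 filtered and normalized the values, while the submitters' processing notes name MAS5, so the signal algorithm is not settled. Detection calls were not used here. The groups came from the sample titles. Of the 8799 probe sets, 59 were array controls, 7006 carried 1 gene symbol, 308 several and 1426 none, and updating symbols through the gene ID changed 0 member symbols.

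The immobilized rat's array was scaled by 1.017, the floor was set at the 50th percentile, and log2 ratios, folds and bounds were computed from the intensities. All members above the floor on either array were named, and of the pathway lists the genes at 2-fold or up to 4 farthest from 0. The rule did not cover the cell type markers, so those named were chosen after their values were seen. Crp, Icam1, Cd44, Hp, Selp, Fgb, Fgg, Prlr and Cx3cl1 were also named outside it. No test was made between the rats, and the counting was tested on simulated data. Members and lists were chosen with earlier results of these data known. Alternatives were 4 other scalings (deposited signals, trimmed means, quantile, loess), floors at the 30th and 70th percentiles, 16 units added without a floor, updated symbols, means over probe sets, 1 value for each gene, interleukins and chemokines alone, thresholds of 1.5-fold and 3-fold, and bounds counted. The tables were computed in pandas 2.3.3 and numpy 2.4.6 under Python 3.11.15, with trimmed means from scipy 1.17.1, loess from statsmodels 0.14.6 and plots from matplotlib 3.10.9.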

Additional observations from a re-analysis of the deposited data

How the results depend on the processing

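The choice of floor changed the counts most, since many members lie near it. With the floor at the 30th percentile (12.6 signal units), 52 probe sets were above it and 8 were at 2-fold, 4 of them lower (Tgfbr3, Il33, Il1a and Il12b, named after their values were seen), and 7 genes were at 2-fold, 4 of them lower. With the floor at the 70th percentile (127), 12 probe sets were above it, 1 probe set and 1 gene (Il15) were at 2-fold higher, and the median log2 ratio was -0.22. Ccl5 is left out there because its control signal was 60.1. With 16 units added and no floor, 1 probe set was at 2-fold lower, a second one of Il1rl1 with 1.73 in the immobilized rat and 24.4 in the control rat, and the 2 at 2-fold higher were Ccl5 and Tgfb3 (34.8 in the immobilized rat and 8 in the control rat), while Il15, at a log2 ratio of 0.99, and the dimmer Tnfrsf21 probe set were not. With log2 ratios averaged over the probe sets of a gene, 1 gene (Ccl5) stayed at 2-fold, as Il15 had 0.81. At 1.5-fold, 7 probe sets (3 lower) and 6 genes (3 lower) were counted, and at 3-fold 1 probe set and 1 gene, higher. The 4 other scalings, updated symbols and counted bounds left the counts at 2-fold at 3 probe sets and 2 genes. Of 177 values of single genes under the alternatives, 176 moved by less than the technical SD, and 1 did not, Tnfrsf21, at 0.57 with probe sets averaged. Among 21 genes, 20 kept their sign throughout. Many of the 177 values could not move, because the other floors and updated symbols leave a ratio as it was. Averaging does the same where a gene had 1 probe set above the floor. Deposited signals and trimmed means shift all ratios by about the same small amount. These counts therefore do not measure how stable the ratios are. Ccl5 ranged from 1.41 to 1.63 and Il15 from 0.81 to 1.08, on the log2 scale. No paired analysis was possible because 1 array for each rat allows no test.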
